A study of Mus musculus with 12 samples.

Results

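The nuclear-encoded subunits of the mitochondrial respiratory chain were described in CD4+ T cells sorted from the lungs of mice. Members were the rows of the deposited count table whose symbols name a subunit of complex I (Nduf symbols with the letters a, b, c, s or v and a digit, without the assembly factors), of complex II (Sdha to Sdhd), of complex III (Uqcr symbols and Cyc1), of complex IV (Cox4i1, Cox8a and the Cox5, Cox6 and Cox7 symbols) or of the ATP synthase, complex V (Atp5 symbols), together with the electron carrier cytochrome c (Cycs). This gave 84 members of 19434 genes, 37 in complex I, 4 in complex II, 9 in complex III, 15 in complex IV and 18 in complex V, and cytochrome c. A filter on low counts kept 78 of the 84, namely 36, 4, 9, 12 and 16 in complexes I to V and cytochrome c. Of the 6 others, Ndufa4l2 and Cox7b2 had 0 counts in every library, and Cox6b2, Cox7a1, Atp5g2 and the pseudogene Atp5l-ps1 were too low to be tested.

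The respiratory chain passes electrons from NADH (complex I) and succinate (complex II) through complex III and cytochrome c to oxygen at complex IV, and the proton gradient made on the way drives ATP synthesis at complex V. Most subunits are encoded in the nucleus, while a small core set is encoded in mitochondrial DNA. Resting T cells draw much of their ATP from this chain, and dividing effector T cells add aerobic glycolysis while enlarging their mitochondrial mass.

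The study set the lung CD4+ T cell response to bacterial pneumonia in juvenile mice beside that in neonatal mice. RNA of 12 libraries was sequenced, 3 in each of 4 groups, and all mice were C57BL/6NJ of both sexes. The juvenile E. coli group received 2800000 colony-forming units (CFU) of Escherichia coli by aspiration on day 15 of life, and the juvenile PBS group received phosphate-buffered saline on the same day. The neonatal E. coli and neonatal PBS groups received the same dose of bacteria or PBS on day 5. Lungs were taken 48 h later, and each library pooled cells of 2 juvenile or 3 neonatal mice, which hides the spread between single animals.

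Libraries held 6035445 to 8129983 counts, and the members took 0.564% to 0.793% of them. Levels are given as CPM, counts scaled to a fixed library size with TMM factors. Cd4 and Cd3e, which define the sorted cells, were at 1028 to 1343 CPM and 1421 to 2033 CPM in the 12 libraries. Cd4 was at 1028 to 1127 CPM in juvenile E. coli against 1243 to 1343 CPM in juvenile PBS libraries. The 10 T cell markers summed to 4833 to 5243 CPM in juvenile E. coli and 5959.6 to 6626 CPM in juvenile PBS libraries. Both were thus lower in each juvenile E. coli library than in each juvenile PBS library. In neonates these sums overlapped, at 5120.2 to 5417 CPM in neonatal E. coli and 5228 to 5916 CPM in neonatal PBS libraries. Other cells' markers were also present, with summed levels of 634 to 799.9 CPM in juvenile E. coli and 289 to 405 CPM in juvenile PBS libraries for 12 dendritic cell and MHC class II genes, against 199.8 to 223 CPM in neonatal E. coli and 143 to 211 CPM in neonatal PBS libraries. The 16 monocyte and macrophage markers summed to 490.2 to 916 CPM in juvenile E. coli, 231 to 472 CPM in juvenile PBS, 346 to 604 CPM in neonatal E. coli and 215 to 373 CPM in neonatal PBS libraries. The 12 lung epithelial markers summed to 93.5 to 209.9 CPM in juvenile E. coli, 37.2 to 44.7 CPM in juvenile PBS, 66.1 to 183 CPM in neonatal E. coli and 53.2 to 89.3 CPM in neonatal PBS libraries, and the 10 neutrophil markers to 6.10 to 17.5, 0.165 to 1.15, 8.04 to 48.9 and 0.278 to 0.653 CPM in the same groups. The part of these lists in the results on the members was not tested. The 13 mitochondrially encoded subunits were listed at 0 in every library, so only the nuclear side of the chain is described.

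Per kilobase of merged exons (GENCODE M21, GRCm38), the catalytic core of the ATP synthase was the most abundant: the mean over the 12 libraries was 300.3 CPM per kb for Atp5a1 (subunit alpha) and 294 CPM per kb for Atp5b (subunit beta). Cox7a2l, a relative of the complex IV subunit COX7A that joins complexes III and IV into supercomplexes, came next with 226.5 CPM per kb, ahead of Atp5c1 (subunit gamma, with 1 named pseudogene) at 176 CPM per kb. The highest member of complex I was Ndufa1 (77.8 CPM per kb), of complex II the flavoprotein Sdha (79.0 CPM per kb), and of complex III the hinge protein gene Uqcrh (103 CPM per kb, with 2 named pseudogenes whose reads may be shared). The medians of complexes I to V were 18.2, 36.4, 28.8, 36.4 and 29.0 CPM per kb, and the tested members spanned 490.4-fold, down to Atp5l (subunit g, 0.612 CPM per kb). Atp5l has 2 named pseudogenes, and its merged exons hold 6443 bases against 544 in its longest transcript, so that its level and the span depend on the length used. The order of the highest members depends on it too. Merged exons hold 3135 bases for Atp5a1 and 4237 for Atp5b, against 2674 and 1916 in their longest transcripts. Members are short genes: the median of their longest transcripts was 955 bases, against 3222 bases over all genes tested, and the exons of 28 of the 83 members found in the annotation overlapped those of another gene. Atp5o has no value per kb because its symbol did not match a single annotated gene.

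Isoforms separated by level. The ubiquitous complex IV subunit gene Cox6a1 was at 85.9 CPM per kb, against 2.84 CPM per kb for the heart and muscle isoform Cox6a2, and Cox7a2 was at 32.6 CPM per kb against 0.337 CPM per kb for the muscle isoform Cox7a1. Cox6b1 was at 23.6 CPM per kb and its testis isoform Cox6b2 at 0.165 CPM per kb. A family of 3 genes encodes the same mature c subunit of the ATP synthase rotor: Atp5g3 was at 100.4, Atp5g1 at 3.46 and Atp5g2 at 0.357 CPM per kb. The low tissue isoforms had few counts, 0 to 5 a library for Cox7a1, 0 to 3 for Cox6b2 and 0 to 8 for Atp5g2, on either side of the limit of 3 counts (0.374 to 0.494 CPM) that a count of 0 allows. Cox8a, the single ubiquitous COX8 gene in the set, was at 87.7 CPM per kb, and Ndufa4, which was first assigned to complex I and is now counted with complex IV, was at 44.0 CPM per kb. Atp5s and Atp5sl, counted here with complex V by their symbols alone, were at 1.2 and 3.3 CPM per kb. Their symbols do not show that they are subunits of the ATP synthase.

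Juvenile PBS library 2 stood apart for the members. Its members lay at a median of 0.40 log2 units above the mean of juvenile PBS libraries 1 and 3, 61 of 78 above it and 17 below, and 38.5% of the members were over 0.5 log2 units higher, against 11.6% of all genes tested. It was the highest of the 12 libraries for 43 of 78 members and for 17.9% of all genes tested. The members summed to 8200 CPM there, against 5684 to 6799 CPM in the other 11 libraries. The shift was not shared by all members. Ndufa2 and Ndufa6, accessory subunits of complex I, were at 60.8 and 47.3 CPM in that library, against 26.4 and 28.5 CPM and 22.8 and 22.6 CPM in libraries 1 and 3, and Atp5a1 was at 1493 CPM against 854 and 820.3 CPM. Sdhd (membrane anchor of complex II) was at 43.8 CPM, against 56.2 and 70.6 CPM in libraries 1 and 3, and Atp5d (subunit delta) at 30.0 CPM against 36.6 and 48.1 CPM. The deviation fell with the GC content of the longest transcript among the members (Pearson's r = -0.28 over 77 members, a description across genes of the same libraries) and likewise over all genes (r = -0.29 over 10919 genes). Among the members the fall lay at the GC-rich end. Their medians were 0.50, 0.48 and 0.52 at GC under 45%, 45% to 50% and 50% to 55%, and 0.04 from 55%. Medians of all genes were 0.14, 0.07, -0.07 and -0.27, so the members lay above all genes in each bin. The correlation with length was -0.28 among the members and -0.10 over all genes. Juvenile PBS library 3, set against libraries 1 and 2 of its group, had a trend with GC content of the other sign, with r = 0.44 over the same members and 0.37 over all genes. Library 2 is part of what library 3 was set against, so this trend is not separate from that of library 2. In juvenile PBS library 2 the T cell receptor recombinase gene Rag1 was at 169.9 CPM and the proliferation marker Mki67 at 1161 CPM, against 13.7 and 29.5 CPM and 645 and 648 CPM in libraries 1 and 3. Such levels were not limited to that library, since Rag1 was at 102 to 145 CPM in juvenile E. coli libraries and 344 CPM in neonatal PBS library 1, and Mki67 at 1780.4 to 2474 CPM in juvenile E. coli libraries. Whether these move the members was not tested. Values without library 2 are given beside those results on juvenile PBS libraries whose call or size depends on it.

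**Figure D1:**
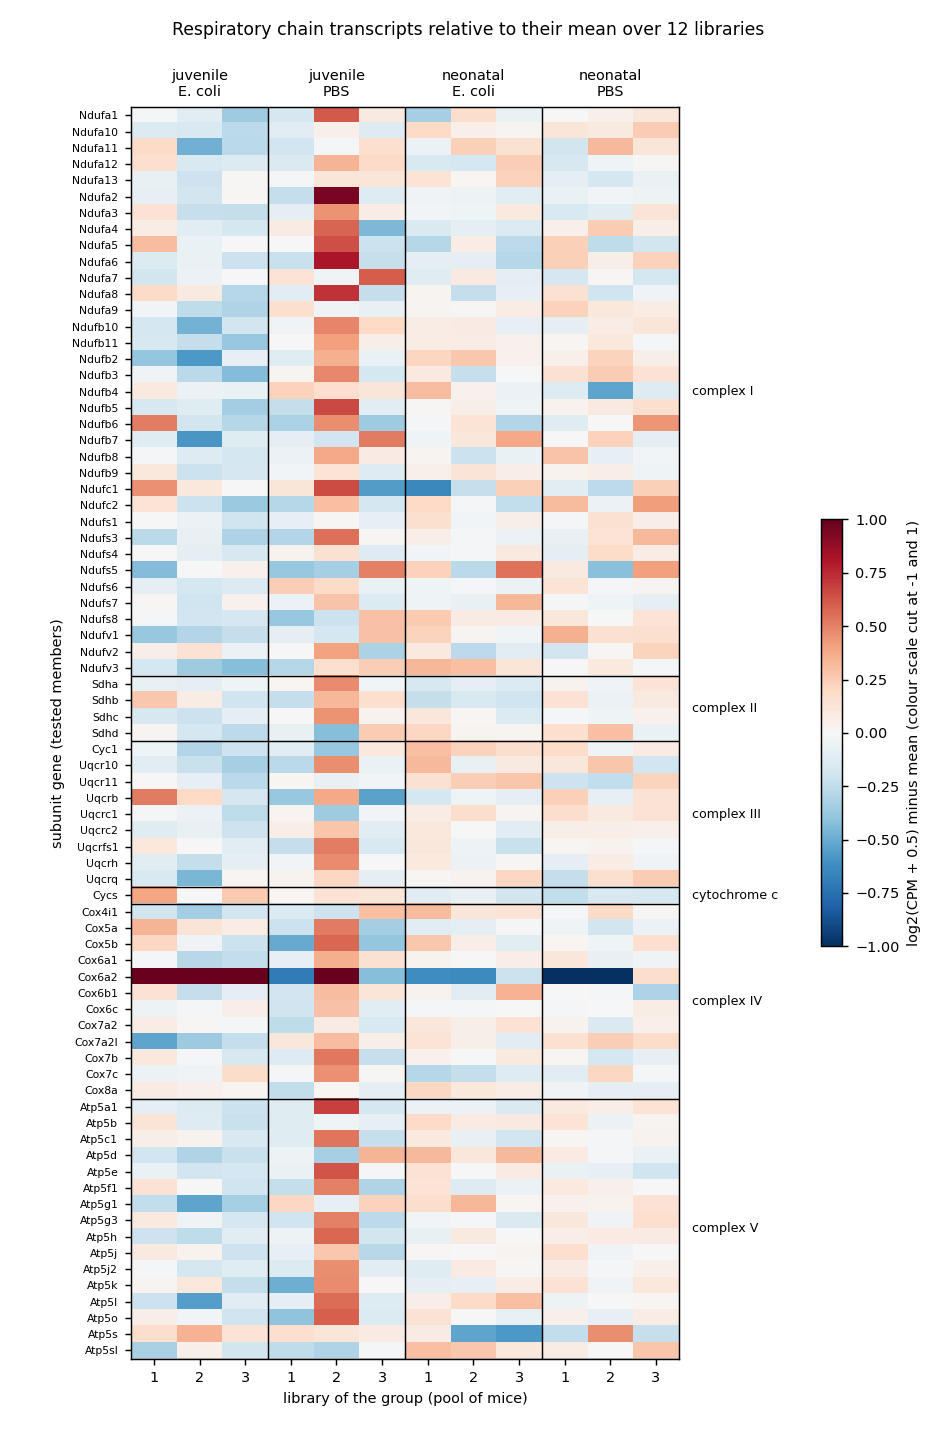
Level of 77 of the 78 tested members (rows, grouped by complex) in each library (columns, by group), as log2(CPM + 0.5) minus its mean over the 12 libraries, on a colour scale cut at -1 and 1. Juvenile PBS library 2 holds most of the dark red cells, and Cox6a2 is high in the 3 juvenile E. coli libraries and in juvenile PBS library 2.

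**Figure D2:**
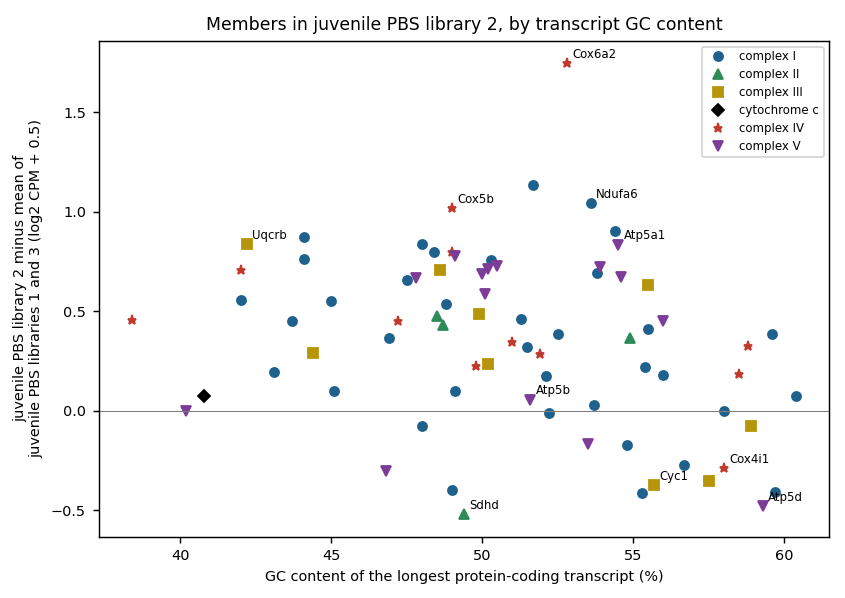
Deviation of 77 of the 78 tested members in juvenile PBS library 2 from the mean of juvenile PBS libraries 1 and 3 (vertical axis, log2(CPM + 0.5)) against the GC content of the longest protein-coding transcript (horizontal axis, %), by complex. Atp5o has no GC value and is not drawn. Points run from -0.52 for Sdhd to 1.75 for Cox6a2, and 17 of the points lie below 0.

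E. coli against PBS in juveniles asked how the chain's transcripts respond to infection at the later age. No member was called higher and 4 were called lower at an adjusted p under 0.05, while 15.4% of all genes tested were called higher and 9.42% lower. The lower calls were 5.13% of the members, under the share over all genes. Taken one by one, 65 members had a negative and 13 a positive log2 fold change, with a median of -0.16 against -0.01 over all genes tested, and 17 had an unadjusted p under 0.05, of which 16 were lower. These 17 were 21.8% of the members, against 37% of all genes at the same limit. The median was -0.20 in complex I, -0.16 in complex II, -0.10 in complex III, -0.06 in complex IV and -0.12 in complex V. Without juvenile PBS library 2 the median over the members was -0.06 and the signs were 45 negative and 33 positive, with 6 members called lower and 4 higher, against 11.4% and 17% of all genes. The lower count was also sensitive to other libraries and settings: it was 11 without juvenile PBS library 1 or 3 and with upper-quartile scaling, 2 without juvenile E. coli library 2, and 1 when only the juvenile groups were fitted. The 11 lower calls were 14.1% of the members, above the share over all genes, which was 6.77% without juvenile PBS library 1, 7.92% without library 3 and 12.8% with upper-quartile scaling, so the order of the shares depends on the libraries and the scaling. The counts of 2 and 1 were 2.56% and 1.28% of the members, against 4.58% and 5.68% of all genes. Without juvenile PBS library 2 complexes I to III had negative medians (-0.10, -0.12 and -0.12), while those of complexes IV and V were 0.16 and 0.03. In bulk samples a lower level can come from fewer cells of a type or from less RNA per cell, and these cannot be told apart.

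**Figure D3:**
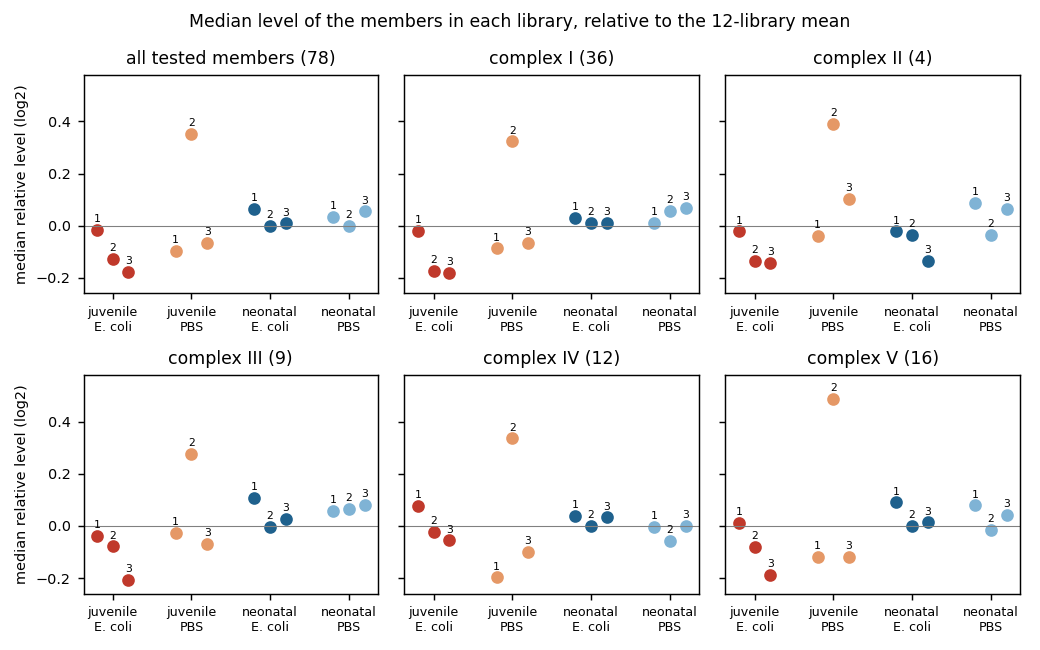
Median over the tested members of the level in each library relative to its mean over the 12 libraries (vertical axis, log2(CPM + 0.5)), for all members and for complexes I to V. Digits are library numbers within a group. Over all 78 members juvenile E. coli libraries lie between -0.18 and -0.02, juvenile PBS library 2 at 0.35 and its group's other libraries at -0.10 and -0.07.

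Cox7a2l, which tunes how complexes III and IV associate and of which C57BL/6 mice are known to carry a shortened form, gave the firmest call. It was at 229, 256 and 280.5 CPM in juvenile E. coli libraries, against 357, 409.5 and 344 CPM in juvenile PBS libraries. The groups did not overlap, and each juvenile E. coli value also lay under each neonatal value (304 to 391 CPM). The log2 fold change was -0.54 ± 0.09 (SE), with an adjusted p of 0.000804 (edgeR quasi-likelihood test), and it was -0.46 with an adjusted p of 0.00172 without juvenile PBS library 2. The call was made under each of the 21 alternatives tried, with log2 fold changes of -0.61 to -0.46. The gene lies on chromosome 17 (GRCm38, 83501918 to 83517330, minus strand).

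In complex I the 2 called members were accessory subunits of the membrane arm. Ndufb10 was at 37.1, 30.1 and 36.9 CPM in juvenile E. coli libraries, against 40.8, 59.0 and 48.1 CPM in juvenile PBS libraries. Ndufb11, on the X chromosome, was at 46.3, 43.8 and 39.6 CPM, against 51.6, 69.1 and 53.9 CPM. Neither pair of groups overlapped, and juvenile PBS library 2 was the highest for both. Log2 fold changes were -0.50 ± 0.14 for Ndufb10 (adjusted p = 0.0143) and -0.43 ± 0.12 for Ndufb11 (adjusted p = 0.0144), and without that library -0.35 (adjusted p = 0.0456) and -0.29 (adjusted p = 0.0415). Neither call is held by every set of libraries: Ndufb10 had an adjusted p of 0.0815 without juvenile E. coli library 2, and Ndufb11 one of 0.0504 without juvenile E. coli library 3. Exons of Ndufb11 overlap those of Rbm10 on the other strand by 117 bases, and the library kit does not mark strand. Ndufa7 was at 11.3, 12.4 and 13.0 CPM in juvenile E. coli against 14.3, 12.5 and 19.9 CPM in juvenile PBS libraries (log2 fold change -0.35, adjusted p = 0.165) and was called lower without juvenile PBS library 2 (-0.48, adjusted p = 0.0491). The log2 fold changes of complex I ran from -0.50 to 0.09, with 34 of 36 negative, and without that library 25 of 36 were negative.

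Complex II, which is also the succinate dehydrogenase of the TCA cycle, had no called member among its 4. The catalytic flavoprotein Sdha was at 308, 302 and 315 CPM in juvenile E. coli against 328, 449 and 317 CPM in juvenile PBS libraries, a log2 fold change of -0.24 ± 0.11 (adjusted p = 0.115). Sdhc, a membrane anchor, was at 70.0, 67.5 and 73.6 CPM against 78.0, 107 and 80.3 CPM, a log2 fold change of -0.33 ± 0.12 (adjusted p = 0.0539). Groups did not overlap for either gene, and juvenile PBS library 2 was the highest of its group for both. Without it the log2 fold changes were -0.07 ± 0.07 for Sdha (adjusted p = 0.507) and -0.17 ± 0.09 for Sdhc (adjusted p = 0.197). The iron-sulfur subunit Sdhb, at 38.9, 33.8 and 28.0 CPM against 27.1, 40.5 and 36.2 CPM, and the other anchor Sdhd, at 60.4, 52.5 and 49.2 CPM against 56.2, 43.8 and 70.6 CPM, overlapped between the groups. Their log2 fold changes were -0.04 and -0.08 over all libraries, and 0.09 and -0.23 without library 2, with no call.

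None of the 9 members of complex III was called over all libraries, and their log2 fold changes ran from -0.31 (Uqcrh, -0.13 without juvenile PBS library 2) to 0.34 (Uqcrb). Uqcrb, which encodes the ubiquinone-binding subunit, was at 35.6, 28.5 and 21.9 CPM in juvenile E. coli against 18.9, 32.3 and 16.9 CPM in juvenile PBS libraries. Each juvenile E. coli value exceeded those of juvenile PBS libraries 1 and 3, and library 2 lay among them. The log2 fold change was 0.34 ± 0.22 (adjusted p = 0.269) with library 2 and 0.68 ± 0.18 (adjusted p = 0.0118) without it. Cytochrome c, the soluble carrier between complexes III and IV that also triggers apoptosis once it leaves the mitochondrion, was at 20.9, 15.7 and 19.1 CPM against 16.0, 17.5 and 17.2 CPM (log2 fold change 0.14, adjusted p = 0.501). Reads of Cycs may be shared with its 2 named pseudogenes.

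In complex IV, Cox7a2l apart, the nuclear-encoded subunits Cox5a and Cox5b, both bound to the catalytic core, depended on juvenile PBS library 2. The first was at 64.6, 55.9 and 53.8 CPM in juvenile E. coli against 43.8, 73.2 and 40.2 CPM in juvenile PBS libraries, and the other at 45.1, 38.1 and 33.5 CPM against 27.4, 58.3 and 29.8 CPM. In both genes library 2 was above, and libraries 1 and 3 below, all juvenile E. coli libraries. Their log2 fold changes were 0.15 (adjusted p = 0.557) and 0.02 (adjusted p = 0.958) over all libraries, and 0.47 (adjusted p = 0.00509) and 0.45 (adjusted p = 0.0337) without library 2. Cox4i1, which carries the regulatory ATP-binding site of complex IV, was at 55.5, 49.7 and 55.2 CPM against 57.5, 54.7 and 77.8 CPM (log2 fold change -0.24, adjusted p = 0.184), and its value was -0.34 without library 2 (adjusted p = 0.059). Cox6a1 was at 59.1, 49.4 and 50.5 CPM against 56.5, 77.1 and 66.8 CPM, with a log2 fold change of -0.33 ± 0.12 just outside the threshold (adjusted p = 0.0522), and of -0.22 without library 2 (adjusted p = 0.159).

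Cox6a2 was low throughout, with 37, 36 and 39 counts in juvenile E. coli libraries against 4, 21 and 5 in juvenile PBS libraries, and 5, 5 and 7 in neonatal E. coli against 0, 0 and 9 in neonatal PBS libraries. This is 4.65, 4.97 and 4.96 CPM against 0.576, 3.46 and 0.797 CPM in the juveniles. The groups did not overlap, yet the log2 fold change of 1.61 ± 0.68 was not called (adjusted p = 0.0991) until juvenile PBS library 2 was left out (2.80 ± 0.77, adjusted p = 0.0141). Besides muscle, Cox6a2 is known to be expressed in plasmacytoid dendritic cells of mice. Siglech, a marker of these cells, was at 188, 200.4 and 136 CPM in juvenile E. coli against 45.2, 59.5 and 59.5 CPM in juvenile PBS libraries, and 46.0, 30.7 and 43.5 CPM in neonatal E. coli against 20.4, 21.1 and 31.7 CPM in neonatal PBS libraries. Flt3, another gene of the dendritic cell list, was at 10.9, 14.1 and 9.53 CPM in juvenile E. coli libraries. In juvenile PBS libraries Flt3 was at 4.61, 12.4 and 4.94 CPM, so these groups overlapped. Its neonatal levels were 5.74, 3.37 and 5.47 CPM after E. coli and 1.64, 2.36 and 4.08 CPM after PBS. In juvenile PBS library 2, Cox6a2 and Flt3 were highest of their group, while Siglech was level with library 3. Exons of Cox6a2 also overlap those of the myeloid integrin gene Itgad on the other strand by 70 bases. The part of other cells in the Cox6a2 counts was not tested.

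Of the 16 tested ATP synthase members, Atp5g1, a gene for the rotor's c subunit, was called lower. It was at 14.1, 11.5 and 13.2 CPM in juvenile E. coli against 19.5, 15.8 and 19.8 CPM in juvenile PBS libraries. The groups did not overlap, and juvenile PBS library 2 was the lowest of its group, so leaving it out enlarged the log2 fold change, which was -0.51 ± 0.15 (adjusted p = 0.0209) with it and -0.60 (adjusted p = 0.0071) without. The call was lost without juvenile E. coli library 2 (adjusted p = 0.0972), juvenile PBS library 1 (0.0704) or juvenile PBS library 3 (0.0692). Atp5g3, the more abundant gene for the same peptide, was at 232, 212 and 193 CPM against 189, 307 and 181 CPM, and was not called (log2 fold change -0.09, and 0.20 without library 2). Atp5d was at 33.2, 30.8 and 32.4 CPM against 36.6, 30.0 and 48.1 CPM, with a log2 fold change of -0.25 (adjusted p = 0.222) over all libraries and -0.40 (adjusted p = 0.0289) without library 2. The catalytic beta subunit Atp5b, the most abundant member by CPM, was at 1359, 1139 and 1065 CPM against 1143, 1206 and 1176 CPM, and the groups overlapped.

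**Figure D4:**
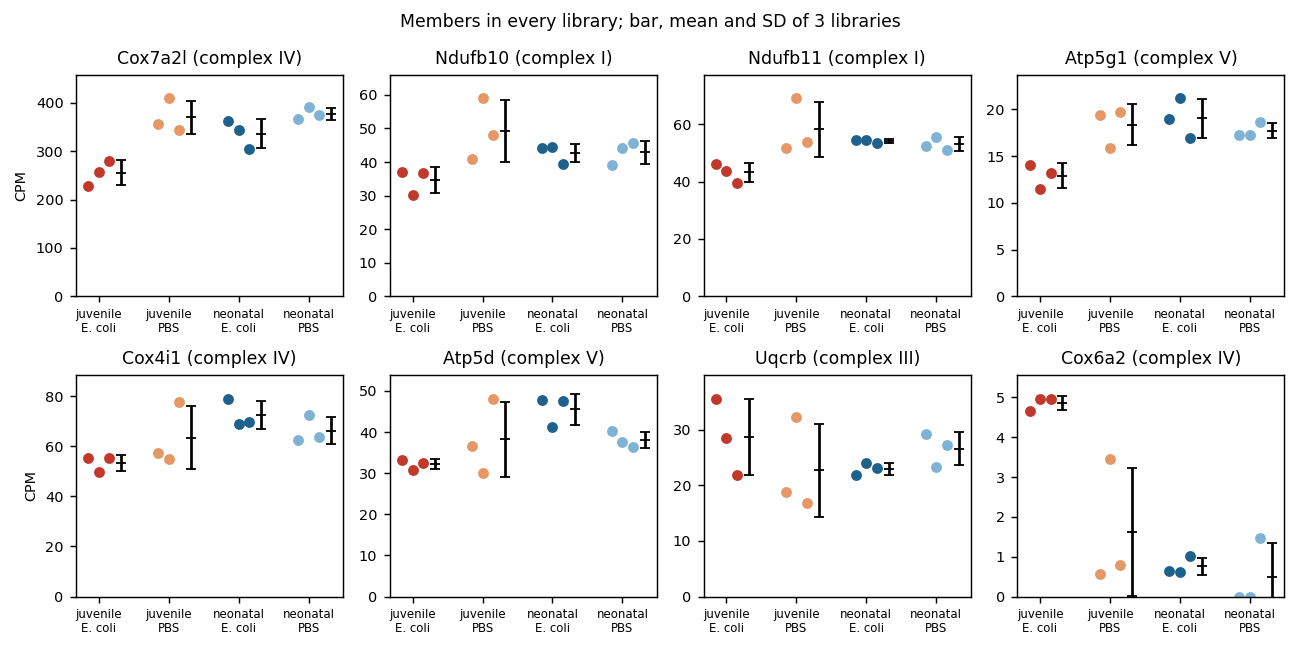
CPM of 8 members in each library (points), with the mean and SD of the 3 libraries of a group beside them. Cox7a2l, Ndufb10, Ndufb11 and Atp5g1 are lower in the 3 juvenile E. coli libraries than in any juvenile PBS library, and in Uqcrb and Cox6a2 juvenile PBS library 2 is well above the other libraries of its group.

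The promoters of the 4 members called lower in juveniles are printed to show what they do and do not share, beside that of Cox6a1, which was near the threshold. Each is the RefSeq window of 300 bases on GRCm38.p6 from 250 bases before to 50 after the annotated start, all on the minus strand: Cox7a2l at chr17:83514284-83514583, Ndufb10 at chr17:24724374-24724673, Ndufb11 at chrX:20617570-20617869, Atp5g1 at chr11:96075582-96075881 and Cox6a1 at chr5:115348909-115349208. The Cox7a2l window lies inside the GENCODE gene, whose outermost start on that strand is at 83517330, so letters at that start were not searched. Capitals mark matches, on either strand, to NRF1 (GCGCNTGCG), ETS including GABP (CCGGAAG), YY1 (AAGATGGC), CRE (TGACGTCA), the estrogen-related receptors (TNAAGGTCA) and SP1 (GGGCGG), motifs of factors known to regulate nuclear genes of the chain.
Cox7a2l: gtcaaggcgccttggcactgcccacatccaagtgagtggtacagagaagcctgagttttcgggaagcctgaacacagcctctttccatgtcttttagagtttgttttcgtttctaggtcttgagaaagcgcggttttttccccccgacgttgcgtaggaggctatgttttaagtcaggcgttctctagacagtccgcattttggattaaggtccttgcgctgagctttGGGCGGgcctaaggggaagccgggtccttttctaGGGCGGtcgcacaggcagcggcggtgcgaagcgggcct
Ndufb10: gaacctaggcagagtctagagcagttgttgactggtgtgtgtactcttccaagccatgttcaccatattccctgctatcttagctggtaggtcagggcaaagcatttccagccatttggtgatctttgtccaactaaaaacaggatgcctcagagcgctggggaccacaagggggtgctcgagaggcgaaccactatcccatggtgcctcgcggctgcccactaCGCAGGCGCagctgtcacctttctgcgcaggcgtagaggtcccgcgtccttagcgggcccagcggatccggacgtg
Ndufb11: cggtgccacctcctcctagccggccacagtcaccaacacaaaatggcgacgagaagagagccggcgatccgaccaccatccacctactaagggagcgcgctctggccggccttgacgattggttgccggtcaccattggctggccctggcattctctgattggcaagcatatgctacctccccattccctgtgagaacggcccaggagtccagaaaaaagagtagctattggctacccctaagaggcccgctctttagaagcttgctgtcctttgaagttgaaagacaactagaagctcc
Atp5g1: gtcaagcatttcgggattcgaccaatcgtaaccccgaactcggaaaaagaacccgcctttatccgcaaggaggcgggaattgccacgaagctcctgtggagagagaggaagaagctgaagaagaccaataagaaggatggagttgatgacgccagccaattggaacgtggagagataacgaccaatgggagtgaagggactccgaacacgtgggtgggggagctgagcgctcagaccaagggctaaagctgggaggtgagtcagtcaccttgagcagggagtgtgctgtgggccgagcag
Cox6a1: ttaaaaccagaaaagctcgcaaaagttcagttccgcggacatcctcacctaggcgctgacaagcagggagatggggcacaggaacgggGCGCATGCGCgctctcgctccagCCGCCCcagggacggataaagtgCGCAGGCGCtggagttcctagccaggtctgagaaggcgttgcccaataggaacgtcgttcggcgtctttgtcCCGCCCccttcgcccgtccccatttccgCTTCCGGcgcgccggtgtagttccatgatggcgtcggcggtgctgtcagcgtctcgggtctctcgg

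Among the 4 lower members, Cox7a2l held 2 SP1 matches, Ndufb10 held 1 NRF1 match, and Ndufb11 and Atp5g1 held none of the 6 motifs. Cox6a1 held NRF1 at 2 places, of which the first matches on both strands with an overlap, 1 ETS match and 2 SP1 matches. No match says only that these letters are not in these windows. RefSeq windows were found for 69 of the 84 members. An NRF1 match was in the windows of 36.2% of these members, 15.5% of tested genes and 7.12% of all genes with a window. For ETS the shares were 23.2%, 20.5% and 9.93%, for YY1 15.9%, 5.37% and 3.19%, for CRE 7.25%, 3.69% and 2.03%, for the estrogen-related receptors 4.35%, 0.913% and 1.43%, and for SP1 42%, 68.4% and 38.2%. YY1 matches were found in 7 of 32 windows of complex I and 4 of 16 of complex V, and in 0 of 12 of complex IV. These are descriptions of letters, and the motifs and the promoters shown were chosen with results in view.

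E. coli against PBS in neonates called no member, while 1.05% of all genes were called higher and 0.145% lower. The members were split into 37 positive and 41 negative log2 fold changes with a median of -0.01, against 0.00 over all genes tested. At an unadjusted p under 0.05 there were 2 members, both higher, or 2.56% against 12% of all genes, and DESeq2 and limma voom called none. Ndufa13, a complex I subunit also known as GRIM-19, was at 27.3, 25.1 and 29.1 CPM in neonatal E. coli against 23.1, 21.8 and 23.7 CPM in neonatal PBS libraries, and Cox8a at 62.4, 58.1 and 57.0 CPM against 52.6, 50.7 and 50.6 CPM. For both the groups did not overlap, and the log2 fold changes were 0.25 ± 0.12 and 0.21 ± 0.10 (adjusted p = 0.411 each). Of the members called in juveniles, Cox7a2l was at 362, 343 and 304 CPM in neonatal E. coli against 367, 391 and 374 CPM in neonatal PBS libraries, a log2 fold change of -0.16 ± 0.09 (adjusted p = 0.548). Atp5g1 was at 19.0, 21.2 and 17.0 CPM against 17.3, 17.2 and 18.6 CPM (log2 fold change 0.11, adjusted p = 0.854). Ndufb10, at 44.2, 44.4 and 39.4 CPM against 39.1, 44.2 and 45.6 CPM, and Ndufb11, at 54.5, 54.4 and 53.4 CPM against 52.5, 55.7 and 51.1 CPM, overlapped between the neonatal groups. Summed over all members, neonatal E. coli libraries held 6519 ± 225 CPM and neonatal PBS libraries 6716 ± 123 CPM (SD, n = 3 each), against 5992 ± 358 CPM in juvenile E. coli and 6765 ± 1243 CPM in juvenile PBS libraries. The juvenile PBS mean rests on library 2 at 8200 CPM, while libraries 1 and 3 were at 6036 and 6060 CPM, close to the juvenile E. coli mean.

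The difference of the responses, juvenile minus neonatal, called no member in either direction, while 5.05% of all genes were called higher and 1.94% lower. At an unadjusted p under 0.05 there were 9 members, all lower, which is 11.5% against 22.2% of all genes, and 58 of 78 values were negative (median -0.15, against -0.01 over all genes). The smallest p-values belonged to Ndufv3, a subunit of the NADH-oxidising module of complex I (difference of log2 fold changes -0.60 ± 0.20, adjusted p = 0.0843), and to Atp5g1 (-0.62 ± 0.21, adjusted p = 0.0864), and that of Cox7a2l was -0.37 ± 0.13 (adjusted p = 0.11). The juvenile calls are thus not shown to be particular to the juveniles. Without juvenile PBS library 2 the median was 0.00 with 42 negative values, and Atp5g1 (-0.71, adjusted p = 0.026) and Atp5d (-0.65, adjusted p = 0.019) were called lower and Uqcrb (0.89, adjusted p = 0.0229) higher, against 4.84% and 8.91% of all genes. With all libraries the values of Atp5d and Uqcrb were -0.51 (adjusted p = 0.146) and 0.55 (adjusted p = 0.312). Limma voom with sample weights called 3 members lower and 1 higher, against 8.35% and 12.4% of all genes.

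**Figure D5:**
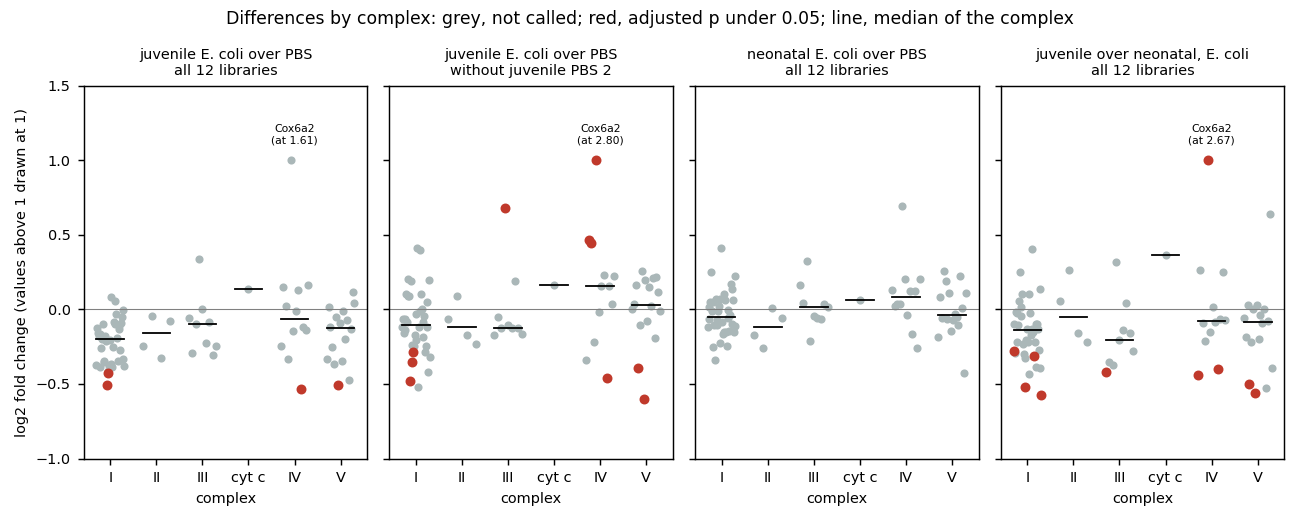
Log2 fold change of each tested member (points) by complex, for E. coli over PBS in juveniles with all 12 libraries and without juvenile PBS library 2, for E. coli over PBS in neonates, and for juvenile over neonatal mice after E. coli. Red points passed an adjusted p under 0.05, black lines are medians, and values above 1 are drawn at 1. Complexes IV and V move above 0 in the second panel, where 4 members are called higher and 6 lower.

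Between juvenile and neonatal mice after E. coli, which does not involve the PBS libraries except through the shared estimate of spread, 9 members were called lower and 1 higher, while 6.42% of all genes were called lower and 11.3% higher. The lower calls were 11.5% of the members and the higher call 1.28%. Log2 fold changes were negative in 57 of 78 members, with a median of -0.13 against -0.02 over all genes, and the medians of complexes I to V were -0.14, -0.05, -0.20, -0.08 and -0.08. This comparison shares the juvenile E. coli libraries with the juvenile response. Cox7a2l was again among the lower members, with a log2 fold change of -0.40 ± 0.09 (adjusted p = 0.00862), as was Atp5g1 (-0.56 ± 0.15, adjusted p = 0.0148), from the values given above. Ndufb10 (-0.30, adjusted p = 0.151) and Ndufb11 (-0.32, adjusted p = 0.0669) were not called.

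In complex I, 4 of 36 tested members were lower. Ndufv3 was at 24.5, 21.5 and 20.5 CPM in juvenile E. coli against 35.0, 34.2 and 30.1 CPM in neonatal E. coli libraries (log2 fold change -0.58 ± 0.14, adjusted p = 0.0103). Ndufb2, an accessory membrane arm subunit whose exons overlap those of Braf and 2 predicted genes, was at 13.6, 11.9 and 16.9 CPM against 20.8, 21.7 and 18.4 CPM (-0.52 ± 0.17, adjusted p = 0.0395). Both pairs of groups were apart, for Ndufb2 by the gap between 16.9 and 18.4 CPM. Ndufa10, an accessory subunit of the membrane arm, was at 103, 102 and 94.5 CPM against 130.3, 117 and 116 CPM (-0.28 ± 0.09, adjusted p = 0.0439). Ndufa10 had the highest adjusted p of the 9, and its call was lost under RLE scaling (0.0512), without a filter (0.0644) and without any one library other than juvenile PBS 2 or 3 (0.0523 to 0.196).

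In the other complexes Cyc1, the heme-carrying cytochrome c1 of complex III, was at 52.4, 43.9 and 46.6 CPM in juvenile E. coli against 66.5, 63.5 and 61.0 CPM in neonatal E. coli libraries (-0.42 ± 0.12, adjusted p = 0.0279). Cox4i1 was at 55.5, 49.7 and 55.2 CPM against 79.0, 68.7 and 69.7 CPM (-0.44 ± 0.13, adjusted p = 0.0273), and Atp5d at 33.2, 30.8 and 32.4 CPM against 47.7, 41.1 and 47.7 CPM (-0.50 ± 0.14, adjusted p = 0.024). The 3 genes were lower in each juvenile E. coli than in each neonatal E. coli library. Exons of Cox4i1 and of Atp5d overlap those of Emc8 and Cbarp on the other strand by 154 and 68 bases. Cox6a2 was higher in juveniles (log2 fold change 2.67 ± 0.74, 6.36-fold, adjusted p = 0.0211), beside the Siglech levels given above. Cycs was at 20.9, 15.7 and 19.1 CPM against 14.6, 15.0 and 13.8 CPM, did not overlap between the ages and was not called (0.36 ± 0.14, adjusted p = 0.0833). Each of the 10 calls was lost without at least 1 library. Without neonatal E. coli library 1 there was 1 lower call, Atp5g1, and 0 higher, and the lost calls had adjusted p-values of 0.0521 (Ndufv3) to 0.196 (Ndufa10), with Cox7a2l at 0.0603. Without neonatal E. coli library 2 there were 5 lower and 0 higher, with Atp5g1 at 0.0714, Cox6a2 at 0.0786, Cyc1 at 0.0681 and Ndufb2 at 0.128. Without juvenile E. coli library 1 or 2 the lower calls were 4 or 2, with 0 higher, and the adjusted p of Cox4i1 was 0.062 or 0.122 and that of Atp5d 0.0583 or 0.0964. Calls over all genes fell too. Without neonatal E. coli library 1 or 2, 1.28% or 6.41% of the members were lower, against 2.73% or 3.41% of all genes. Without juvenile E. coli library 1 or 2 it was 5.13% or 2.56%, against 2.49% or 2.53%. In the same order, 7.16%, 8.17%, 7.66% and 7.36% of all genes were higher. Cyc1 was also lost without juvenile E. coli library 3 (0.0622), Atp5d without neonatal E. coli library 3 (0.0716), and Ndufb2 without any neonatal PBS library (0.0509 to 0.0546). Leaving out juvenile PBS library 2 instead gave 10 lower and 1 higher, against 9.37% and 14% of all genes.

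After PBS no member differed between juvenile and neonatal mice at an adjusted p under 0.05, while 4.08% of all genes were called, 1.75% higher and 2.32% lower. Of the members 45 were positive and 33 negative (median 0.04, against 0.01 over all genes), 3 had an unadjusted p under 0.05 (3.85%, against 17.8% of all genes), and DESeq2 called none. Ndufa10 was at 105, 118 and 104 CPM in juvenile PBS against 123, 121 and 135 CPM in neonatal PBS libraries (log2 fold change -0.22 ± 0.09, adjusted p = 0.212). Uqcrc1, a core protein of complex III, was at 49.9, 38.2 and 48.1 CPM against 55.5, 52.1 and 54.4 CPM (-0.25 ± 0.11, adjusted p = 0.273), and in both genes the groups did not overlap. Without juvenile PBS library 2 the values were -0.28 (adjusted p = 0.0819) for Ndufa10 and -0.14 (adjusted p = 0.478) for Uqcrc1. Without juvenile PBS library 2 the picture of signs turned, with 58 negative and 20 positive values and a median of -0.10. Atp5a1 was then called lower (-0.25 ± 0.06, adjusted p = 0.0344, against 3.6% of all genes), while with all libraries it was at 854, 1493 and 820.3 CPM in juvenile PBS against 995, 969.9 and 1022 CPM in neonatal PBS libraries, a log2 fold change of 0.08 (adjusted p = 0.844).

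Genes around the chain are given by list, to be read beside the shares over all genes tested. In the juvenile response these were 15.4% higher and 9.42% lower, and 17% and 11.4% without juvenile PBS library 2. In juveniles after E. coli, none of 9 tested complex I assembly factors passed (median log2 fold change 0.00, against -0.01 over all genes). Of 25 assembly factors of complexes II to V, 1 was higher and 2 were lower (median -0.10). Sco1, a copper chaperone of complex IV, rose to 12.9 ± 4.26 CPM in juvenile E. coli, against 6.14 ± 1.18 CPM in juvenile PBS libraries (SD, n = 3 each), a log2 fold change of 1.07 ± 0.25 (adjusted p = 0.00526). The complex III assembly factor listed as AI462493 (Uqcc3) was at 7.85 ± 1.43 CPM against 15.2 ± 4.12 CPM (-0.94 ± 0.20, adjusted p = 0.00288), and Cox16, which assists complex IV assembly, had a log2 fold change of -0.36 ± 0.12 (adjusted p = 0.0407). Without juvenile PBS library 2, a setting added for these lists after the data were seen, the median of the 25 was 0.04. Sco1 (0.92, adjusted p = 0.0159) and AI462493 (-0.72, adjusted p = 0.00933) were still called, Cox16 was not (-0.21, adjusted p = 0.138), and the complex III assembly factor gene Lyrm7 was called lower (-0.98, adjusted p = 0.0305).

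Of 12 tested genes that maintain mitochondrial DNA and RNA, 3 were lower and 0 higher (median -0.33), against 9.42% and 15.4% of all genes. The lower share was above that of all genes, in a short list. Tfb2m, the mitochondrial transcription factor, was at 14.3 ± 2.63 CPM in juvenile E. coli against 22.5 ± 2.68 CPM in juvenile PBS libraries (-0.65 ± 0.17, adjusted p = 0.0128). Polg2, the accessory subunit of the mitochondrial DNA polymerase, had a log2 fold change of -0.71 ± 0.19 (adjusted p = 0.0132), and Lrpprc, which stabilises mitochondrial mRNAs, one of -0.33 ± 0.11 (adjusted p = 0.041). The median was -0.18 without juvenile PBS library 2, and in that fit Tfb2m (-0.68, adjusted p = 0.014) and Polg2 (-0.87, adjusted p = 0.00208) were called, and Lrpprc was not (-0.21, adjusted p = 0.129). Among 75 mitochondrial ribosomal protein genes 4 were lower and 0 higher (median -0.16), both under the shares over all genes. The lower genes were led by Mrps31 (-0.55, adjusted p = 0.0124), Mrpl48 (-0.52, adjusted p = 0.0175) and Mrps35 (-0.46, adjusted p = 0.0338). The 77 ribosomal protein genes in the table summed to 1668 to 1769 CPM in juvenile E. coli libraries, against 1757, 2262 and 1726 CPM in juvenile PBS libraries, with library 2 the highest. Without it the median was 0.02, and 2 genes were lower, Mrps31 (-0.47, adjusted p = 0.0317) and Mrpl48 (-0.44, adjusted p = 0.0409), and Mrps22 was higher (0.50, adjusted p = 0.0275). None of 17 genes of the TCA cycle and pyruvate dehydrogenase (median -0.04, and 0.04 without that library) and none of 10 of ATP export and coupling (median 0.05) passed. Without library 2, the ATP export and coupling list had a median of 0.17, with Slc25a4, an ADP/ATP carrier, higher (0.34, adjusted p = 0.0213) and Ucp2, an inner membrane carrier named for uncoupling, lower (-0.51, adjusted p = 0.000566).

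Among 10 tested regulators of mitochondrial biogenesis 3 were higher and 0 lower in juveniles (median -0.08), against 15.4% and 9.42% of all genes. The higher share was above that of all genes, again in a short list. Myc was at 162 ± 30.9 CPM in juvenile E. coli against 93.7 ± 8.65 CPM in juvenile PBS libraries (log2 fold change 0.79 ± 0.12, adjusted p = 0.000245). Gabpb1, a subunit of the ETS-family factor GABP, had a log2 fold change of 0.41 ± 0.09 (adjusted p = 0.0048), and Hcfc1, a coactivator that binds it, one of 0.33 ± 0.11 (adjusted p = 0.0325). In the fit without juvenile PBS library 2 Myc (0.87, adjusted p = 0.000161) and Gabpb1 (0.51, adjusted p = 0.000356) were called, Hcfc1 was not (0.22, adjusted p = 0.0858), and Pprc1, a coactivator of the PGC-1 family, was called lower (-0.34, adjusted p = 0.0446). In neonates, where 1.05% of all genes were called higher and 0.145% lower, Myc was the only called gene of these lists. It was at 134 ± 2.73 CPM in neonatal E. coli against 82.2 ± 7.0 CPM in neonatal PBS libraries (0.71 ± 0.12, adjusted p = 0.00705). Between juvenile and neonatal mice after E. coli, Cox10 (heme A synthesis for complex IV, -0.47, adjusted p = 0.0318), AI462493 (-0.61, adjusted p = 0.0434), Tfb2m (-0.64, adjusted p = 0.0186), Idh3g (an isocitrate dehydrogenase subunit, -0.26, adjusted p = 0.0434) and Mrpl2 (-0.95, adjusted p = 0.032) were lower and Gabpb1 higher (0.35, adjusted p = 0.0152). Over all genes 6.42% were called lower and 11.3% higher in that comparison. When juvenile PBS library 2 was left out, Sco1 was also called higher, and Lrpprc, Polg2, Slc25a5 and Mrps26 lower (adjusted p = 0.0293 to 0.0367). The difference of the responses and the age comparison after PBS called none of these lists' genes with all libraries. Without that library the difference was called higher for Gabpb1 (0.49, adjusted p = 0.00819) and Slc25a4 (0.43, adjusted p = 0.0451) and lower for Ucp2 (-0.69, adjusted p = 0.002), Pprc1 (-0.60, adjusted p = 0.0231) and Tfb2m (-0.81, adjusted p = 0.0447). After PBS it then called Ucp2 higher (0.51, adjusted p = 0.00269) and Mrpl21 lower (-0.51, adjusted p = 0.0212). The 15 proliferation markers summed to 3874 to 5868 CPM in juvenile E. coli against 1629 to 2919 CPM in juvenile PBS libraries, and 3665 to 3974 CPM in neonatal E. coli against 3919 to 5033 CPM in neonatal PBS libraries, and their part in the members' levels was not tested.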

How the data were processed

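RNA was measured in 12 libraries, 3 pools in each of 4 groups. Whether the pools of a group came from separate litters is not given, so p-values measure the spread between these pools. Per the labels' protocols, T cells were bead-enriched and flow-sorted, cDNA came from a strand-blind amplification kit, and paired ends were read. Per the submitters' processing notes, the authors used CASAVA 1.8.4 and STAR with GRCm38 (mm10). The deposited values are raw gene counts in whole numbers. Their annotation, strand setting and treatment of shared reads are not stated in the labels.

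Genes were filtered with filterByExpr (minimum count 10, minimum total count 15), leaving 11062 of 19434 genes and 99.9% of the counts. The quasi-likelihood test of edgeR 4.0.16, run in R 4.3.3 with TMM scaling, used a mean for each group fitted to the 12 libraries together. P-values were Benjamini-Hochberg adjusted over all tested genes with a threshold of 0.05, and a gene past it is termed called. Contrasts were E. coli over PBS in juveniles and in neonates, their difference, and juvenile over neonatal mice after E. coli and after PBS. The script was tested on simulated data. Between libraries of a group, chi-square over degrees of freedom was 3.88 to 19.6, so none was a duplicate. Positions are GENCODE M21, and promoters are RefSeq GRCm38.p6. Tables and figures used Python 3.11.15.

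The members and lists were chosen with earlier results of these data known. Named were, per complex and contrast, up to 4 called members of largest change in each direction at an average log2 CPM of at least 3, complex II, cytochrome c, isoforms, the most abundant members and up to 3 called genes of smallest p per list. Members brought up by a left-out library or an unadjusted p, Siglech, Flt3, the GC description, the motifs and the promoters were chosen after values were seen. A form of the NRF1 motif longer by 1 base was tried first and gave lower shares and no match in Ndufb10. Alternatives were upper-quartile and RLE scaling, DESeq2 1.42.0, voom with sample weights (limma 3.58.1), no low-count filter, a stricter one (10 counts in each library of at least 1 group), fits limited to the groups compared, a block for the replicate number, and libraries left out. Leaving juvenile PBS library 2 out for the gene lists around the chain was added after the data were seen. The study's DNA methylation data were not analysed here. The values of 1 called complex I member are not reported here, though counts and medians include it.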

Additional observations from a re-analysis of the deposited data

How the results depend on the processing

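No member was called in the neonatal response under any of the 21 alternatives, and the 4 juvenile lower calls were all made again under RLE scaling, upper-quartile scaling, DESeq2, voom, no filter, the stricter filter and the replicate block. Counts that moved by over 1.5 times did so as follows. With upper-quartile scaling 11 members were lower in the juvenile response. With voom and sample weights 5 were higher and 7 lower in juveniles (against 22.9% and 17.6% of all genes), 1 higher and 3 lower in the difference of responses (12.4% and 8.35%), 21 lower in juveniles than in neonates after E. coli (15.5%), and 1 lower after PBS (4.75%). Calls over all genes were thus more frequent too. The 21 of 78 tested members were above the share over all genes, and the other voom counts given were under theirs. Fitting the juvenile groups alone left 1 lower member, Cox7a2l. Without both juvenile PBS library 2 and neonatal PBS library 1, 4 members were higher in the juvenile response (against 16.9% of all genes) and 1 was lower in the difference (3.15%). Leaving out 1 library at a time gave 0 to 4 higher and 2 to 11 lower members in juveniles (11 without juvenile PBS library 1 or 3, 2 without juvenile E. coli library 2), 0 to 1 higher and 0 to 2 lower in the difference, 0 to 1 higher and 1 to 10 lower between ages after E. coli, and 0 to 1 higher and 0 to 1 lower after PBS. Over all genes the shares in these fits were 10.2% to 17% higher and 4.58% to 11.4% lower in juveniles. They were 2.37% to 8.91% and 0.625% to 4.84% in the difference. Between ages they were 7.16% to 14% and 2.49% to 9.37% after E. coli, and 0.754% to 2.34% and 0.816% to 3.6% after PBS. Where an arm kept 2 libraries, all groups still shared the estimate of spread. Cox5b in juveniles turned sign around 0, with -0.0336 under upper-quartile scaling, -0.000486 without a filter, and -0.18 to 0.45 with a library left out. Atp5a1 after PBS was -0.18 with voom, -0.25 without the pair of PBS libraries, and -0.25 to 0.24 with 1 library left out. The cause of these changes was not tested. With a block for the replicate number, 4 members were lower in juveniles and, after E. coli, 7 were lower and 1 higher in juveniles than in neonates, where Ndufa10 (adjusted p = 0.0651) and Ndufb2 (0.0572) were no longer called. Same-numbered libraries of different groups did not deviate together more than others (correlations -0.183 to 0.219, against -0.243 to 0.21 for others). No pairing by number was seen, and with 3 libraries in each group this check could not exclude it. Depth limits the lowest members, for which 3 counts are 0.374 to 0.494 CPM.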
